A study of Homo sapiens with 12 samples.

Results

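CXCL1, CXCL2, CXCL3, CXCL5, CXCL8, CCL2, CCL20, IL6, IL1B and IL1A encode inflammatory chemokines and cytokines, and the accessible chromatin around these 10 of the 20020 protein-coding genes of GENCODE release 44 is described here. A region was taken when any of its 100-bp bins lay within 30 kb of any transcription start site (TSS) of a member, and region positions refer to GRCh38. This rule took 294 of the 709366 bins measured in DU-145 cells, which form 32 of 79177 accessible regions. In BT-549 cells it took 400 of 472994 bins, which form 29 of 46298 regions. Runs of adjacent bins measured in both lines numbered 32671, of which 22 belonged to the 10 genes. The BT-549 table held no region for CCL2 or IL1B, although peaks of 3 of 3 BT-549 vehicle libraries overlapped the DU-145 regions of CCL2.

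The study used ATAC-seq, in which a transposase tags open chromatin, to ask which accessible regions change when MUC1-C, an oncogenic protein encoded by MUC1, is silenced. DU-145 is a castration-resistant prostate cancer line and BT-549 a triple-negative breast cancer line, and all groups carried tet-MUC1shRNA, a hairpin against MUC1 that doxycycline (DOX) induces. Each line received vehicle, which was 0.1% DMSO, or DOX for 7 days, giving 4 groups of 3 replicates and 12 libraries. The BT-549 medium held insulin at 10 ug/ml, and that of DU-145 did not. No library with a control hairpin was analysed here, so DOX itself and silencing of MUC1 cannot be told apart, and the silencing was not checked here. The methods call the replicates biologically independent, the labels name no separate cultures, and all p-values measure the spread between these samples.

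Depth was read as the coverage summed over all bins of a library. For DU-145 it was 13868501, 24001285 and 12370094 with vehicle and 16337380, 25232000 and 21094631 with DOX. The BT-549 vehicle libraries held 13606129, 11675868 and 9142900, whereas the BT-549 DOX libraries held 2580687, 2502510 and 3267024 and were the shallowest of the series. Markers of cell type were read within 1 kb of start sites. In DU-145, 8 of 8 epithelial and 5 of 8 mesenchymal markers had bins (CDH2, TWIST1 and COL6A3 had neither bins nor peaks), and in BT-549, a line labelled as breast cancer, 3 of 8 epithelial and 8 of 8 mesenchymal markers did. EPCAM, CDH1, KRT8, KRT18 and KRT19 had no bins in BT-549, with peaks in 4, 2, 3, 3 and 0 of its 6 libraries. Coverage of a region is given below as its summed coverage per 1000000 of the summed coverage of its library.

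As background, the CXC chemokines CXCL1, CXCL2, CXCL3, CXCL5 and CXCL8 attract neutrophils through the receptor CXCR2, CCL2 attracts monocytes through CCR2, and CCL20 attracts lymphocytes and dendritic cells through CCR6. IL6 signals through IL6R, IL6ST and STAT3, while IL1A and IL1B signal through IL1R1 and MYD88 and induce many of the other members. In epithelial and tumour cells these genes are classic targets of NF-kappa B, AP-1 and C/EBP factors, and tumours that express them recruit myeloid cells.

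Some promoters of the members share short elements, and they are shown here since coverage is compared below at the start sites that have a region. The starts of CCL20, IL1A and IL1B have none. RefSeq promoters (GRCh38.p14) of 300 bases, from 250 before to 50 after the start, matched 9 of the 10 genes, with CCL2 unmatched. Both strands were searched for the AP-1 motif TGACTCA, the C/EBP motif TTGCNNAA and the kappa B consensus. A kappa B match was found in 6 of the 9 promoters (CXCL1, CXCL2, CXCL3, CXCL5, CCL20 and IL6) and in 11.3% of all 35116 promoters. An AP-1 match was found in 2 (CXCL8 and IL1A) against 4.95% of all, and a C/EBP match in 3 (CXCL2, IL6 and IL1B) against 10.5% of all. In CXCL1, CXCL2, CXCL3 and CXCL5 the kappa B match was read on both strands, offset by 1 base, and no AP-1 or C/EBP match overlapped a kappa B match in the promoters printed. These matches describe letters and not binding. The 250 bases before the start are printed 5′ to 3′ on the strand of the gene, with motif matches in capitals.
CXCL1 promoter, chr4:73869143-73869392, plus strand: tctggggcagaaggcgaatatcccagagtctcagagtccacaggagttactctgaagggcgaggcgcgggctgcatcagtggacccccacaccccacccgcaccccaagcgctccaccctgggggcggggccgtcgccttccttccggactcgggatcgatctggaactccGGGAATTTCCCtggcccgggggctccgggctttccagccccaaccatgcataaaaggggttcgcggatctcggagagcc
CXCL2 promoter, chr4:74099196-74099445, minus strand: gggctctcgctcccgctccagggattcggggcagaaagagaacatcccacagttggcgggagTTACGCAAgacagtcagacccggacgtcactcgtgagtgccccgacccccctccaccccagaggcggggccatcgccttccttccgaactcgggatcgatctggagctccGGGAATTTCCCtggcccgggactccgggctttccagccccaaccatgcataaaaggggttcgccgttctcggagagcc
CXCL8 promoter, chr4:73740319-73740568, plus strand: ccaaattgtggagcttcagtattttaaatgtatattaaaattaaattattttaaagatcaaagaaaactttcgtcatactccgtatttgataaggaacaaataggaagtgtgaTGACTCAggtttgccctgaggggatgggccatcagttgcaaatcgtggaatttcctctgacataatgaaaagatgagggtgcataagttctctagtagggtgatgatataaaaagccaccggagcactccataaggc
CCL20 promoter, chr2:227813592-227813841, plus strand: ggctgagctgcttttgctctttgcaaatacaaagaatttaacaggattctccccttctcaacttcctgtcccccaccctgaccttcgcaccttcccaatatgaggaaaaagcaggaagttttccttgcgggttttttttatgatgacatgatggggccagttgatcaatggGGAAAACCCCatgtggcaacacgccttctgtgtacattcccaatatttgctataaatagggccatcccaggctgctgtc
IL6 promoter, chr7:22726950-22727199, plus strand: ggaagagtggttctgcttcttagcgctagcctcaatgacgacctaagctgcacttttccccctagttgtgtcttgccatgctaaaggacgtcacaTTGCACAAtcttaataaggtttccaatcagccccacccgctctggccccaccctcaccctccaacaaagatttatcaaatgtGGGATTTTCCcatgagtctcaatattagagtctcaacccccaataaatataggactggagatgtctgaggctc
The kappa B match ended 69 bases before the start in CXCL1 and 68 in CXCL2, 70 in CCL20 and 64 in IL6. The AP-1 match of CXCL8 lay 137 to 131 bases before the start, and the C/EBP match of IL6 155 to 148. The promoters of CXCL1 and CXCL2 shared a run of 42 identical bases and those of CXCL2 and CXCL3 a run of 37. How fragments that match more than 1 of these copies were placed was not tested.

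Away from the promoters, 300 bases of 3 distal elements, each the member region with the smallest adjusted p in its line and direction, are printed from the plus strand, with the 100-base bin of highest coverage in capitals. Distances are those of the highest bin from the start site of the gene, negative when upstream.
IL6 -8.8 kb, lower in BT-549 with DOX, chr7:22718201-22718500, plus strand: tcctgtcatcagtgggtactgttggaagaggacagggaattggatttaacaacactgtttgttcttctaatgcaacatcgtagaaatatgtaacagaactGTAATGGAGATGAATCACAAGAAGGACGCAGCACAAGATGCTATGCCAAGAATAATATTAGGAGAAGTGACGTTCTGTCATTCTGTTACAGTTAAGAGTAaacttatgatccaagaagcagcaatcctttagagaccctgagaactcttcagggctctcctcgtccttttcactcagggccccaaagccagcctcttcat
CXCL1 +16.7 kb, higher in BT-549 with DOX, chr4:73885901-73886200, plus strand: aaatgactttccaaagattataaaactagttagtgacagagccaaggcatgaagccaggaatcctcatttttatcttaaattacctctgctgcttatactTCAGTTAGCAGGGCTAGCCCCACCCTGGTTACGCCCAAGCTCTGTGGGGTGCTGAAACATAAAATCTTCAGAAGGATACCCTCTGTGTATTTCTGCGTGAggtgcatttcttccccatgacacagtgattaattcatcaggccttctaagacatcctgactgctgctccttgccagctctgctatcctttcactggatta
CXCL1 +22.7 kb, lower in DU-145 with DOX, chr4:73891901-73892200, plus strand: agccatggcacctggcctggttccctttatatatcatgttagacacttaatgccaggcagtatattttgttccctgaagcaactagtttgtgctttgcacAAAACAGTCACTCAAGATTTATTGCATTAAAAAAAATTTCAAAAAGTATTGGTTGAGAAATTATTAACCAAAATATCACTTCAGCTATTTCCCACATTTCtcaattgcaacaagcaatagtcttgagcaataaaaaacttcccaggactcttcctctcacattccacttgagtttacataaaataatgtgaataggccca
None of these 3 windows held an AP-1 or kappa B match, and the CXCL1 +22.7 kb window held 2 C/EBP matches. Over windows of 300 bases at the highest bins, kappa B matches were found in 7 of the 32 DU-145 member regions against 8.45% of all DU-145 regions, and in 6 of the 29 BT-549 member regions against 10.4% of all BT-549 regions. AP-1 matches were found in 9 of 32 against 30.02% in DU-145 and in 9 of 29 against 17.2% in BT-549. C/EBP matches were found in 6 of 32 against 15.4% in DU-145 and in 7 of 29 against 12.5% in BT-549.

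The summed coverage around each gene is the broadest view of the members, and it was plotted for every library. In DU-145 cells DOX separated 5 genes and overlapped with vehicle at 5. Every DOX library lay above every vehicle library at CXCL5, IL6 and IL1B and below at CXCL2 and IL1A, against 22.1% (above) and 34.7% (below) of the 18277 protein-coding genes with bins. The IL6 separation in DU-145 was lost under TMM scaling (DOX over vehicle 1.02, against 1.17 by library sums), and CXCL3, which overlapped by library sums, lay below under TMM (0.792). In BT-549 cells DOX lay above vehicle at CXCL1 and below at CXCL2, CXCL3 and IL6, against 25.4% (above) and 18.2% (below) of 17032 genes. CXCL3 overlapped there under TMM (0.939) and IL1A lay above (1.09). Both TMM for these sums and scaling by the bins more than 1 kb from any TSS (distal-bin scaling) were chosen after seeing the data. With the latter, IL6 in DU-145 was 0.967 and CXCL3 in BT-549 0.993, both overlapping. With that scaling CCL20 lay below in DU-145 (0.850) and above in BT-549 (1.32), CXCL3 below in DU-145 (0.747), and IL1A above in BT-549 (1.16). The separations of CXCL2, CXCL5, IL1B and IL1A in DU-145 and of CXCL1, CXCL2 and IL6 in BT-549 were found under library sums and both of these scalings. The shares of all genes moved too: DOX lay below vehicle at 59.0% of DU-145 genes under TMM and 68.0% with distal-bin scaling, and above at 11.5% and 8.87%. In BT-549 it lay above at 35.3% and 44.3% and below at 12.01% and 8.88%.

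The sums of the members in single libraries were as follows, over the bins of each line's own table. CXCL1 held 16.7, 16.7 and 13.3 with vehicle and 11.8, 15.3 and 21.3 with DOX in DU-145, which overlapped, and 173, 181 and 166 with vehicle and 196, 230 and 221 with DOX in BT-549, which did not. CXCL2 held 149, 155 and 158 with vehicle and 144, 148 and 140 with DOX in DU-145. In BT-549 it held 247, 246 and 237 with vehicle and 166, 175 and 163 with DOX, so DOX was below vehicle in both lines. CXCL5 held 4.46, 3.01 and 3.9 with vehicle and 8.18, 5.6 and 5.53 with DOX in DU-145 and 31, 30.3 and 38.1 with vehicle and 20.5, 38.1 and 27.2 with DOX in BT-549, separated in DU-145 and overlapping in BT-549. The separation in DU-145 did not lie at the CXCL5 start site, where the groups overlapped. IL6 held 61, 68.3 and 62.6 with vehicle and 77.4, 73.1 and 74.4 with DOX in DU-145, a separation that was lost under TMM. In BT-549 it held 391, 408 and 422 with vehicle and 177, 162 and 198 with DOX, and even its highest DOX library was far below vehicle. IL1B held 9.27, 8.81 and 8.75 with vehicle and 17.8, 17.5 and 15.9 with DOX in DU-145, and the IL1A window 40, 43.4 and 38.4 with vehicle and 26.7, 29.5 and 30.5 with DOX. Most of the IL1A sum is the start of CKAP2L (mean 40.3 with vehicle and 26.1 with DOX), and its other region, shared with IL1B, gained coverage. CXCL8, CCL2 and CCL20 overlapped in DU-145, with mean ratios of DOX to vehicle of 1.16, 1.03 and 1.03, and CXCL8 and CCL20 overlapped in BT-549, with 1.18 and 1.16, by library sums.

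**Figure D1:**
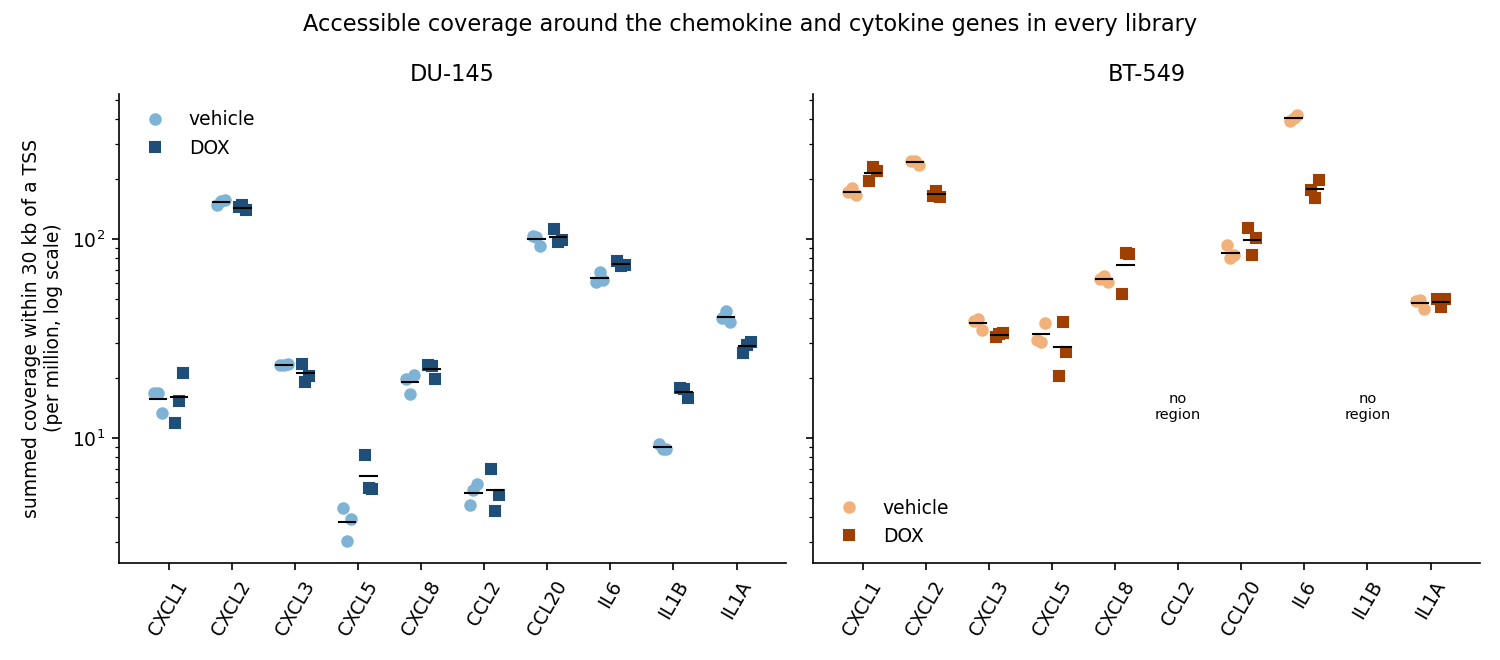
Summed coverage of the bins within 30 kb of a TSS of each gene, per 1000000 and on a log axis, with 1 point for each library and a black bar at the mean of its group. IL6 in BT-549 lay at 391 to 422 with vehicle and at 162 to 198 with DOX, and IL1B in DU-145 at 8.75 to 9.27 and 15.9 to 17.8, both separated under TMM and distal-bin scaling too.

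The first comparison asks which regions around the members opened or closed with DOX in DU-145 cells. The regions that gained coverage with DOX included distal elements between IL1B and IL1A and near CXCL2, CXCL1, CXCL3 and IL6. Those that lost it included the start sites of CXCL3 and CCL2, an element downstream of CXCL1 and regions 15.2 to 24.1 kb upstream of CXCL2. Of the 32 regions, 9 were higher with DOX, 8 were lower and 15 were not called at an adjusted p under 0.05 in edgeR, against 37.1% higher and 17.4% lower among all 79177 regions. The median log2 change was 0.16 over the members and 0.24 over all regions, so changes are also given relative to that median of 0.24. The median of the members turned to -0.04 under TMM (0.05 over all), -0.12 with distal-bin scaling (-0.03) and -0.39 with the GC trend removed (-0.09). Of the 19 member regions more than 1 kb from any TSS, 8 were higher and 3 lower, near the 44.5% and 12.8% of all such regions. Of the 13 within 1 kb of a TSS of any gene, 1 was higher and 5 were lower, against 18.9% and 28.6% of all promoter regions. In bulk chromatin, the share of cells with an open region and its openness in each cell cannot be told apart.

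At CXCL5, which encodes a neutrophil chemokine, the start site in DU-145, chr4:73998201-73999000, held 4.31, 2.66 and 3.81 with vehicle and 4.99, 3.49 and 2.52 with DOX. These groups overlapped, with a log2 value of 0.03 ± 0.25 (SE, n = 3 and 3, adjusted p 0.921 in edgeR) that was -0.16 under TMM.

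The interleukin 1 genes, which encode early inducers of the other members, gained coverage in DU-145 away from their own starts. The region chr2:112804201-112804500, which lies between IL1B and IL1A and 19.7 kb from the nearest IL1A start, held 0.265, 0.354 and 0.458 with vehicle and 3.04, 3.21 and 2.12 with DOX. Every DOX library was above every vehicle library, and the change was 7.77-fold (log2 2.94 ± 0.37, 2.70 relative to the median, adjusted p 3.22e-08 in edgeR). In limma-trend with 1 added to the counts per 1000000 it was 1.47, still called. This region had peaks in 0 of 3 vehicle and 3 of 3 DOX libraries. It was thus included only through the group where it is high, and its separation follows in part from that choice. Both other regions of IL1B were higher as well, and they are named after their values were seen. The intronic region 15.3 kb downstream of the IL1B start rose from 4.16, 3.44 and 4.62 to 8.26, 7.69 and 7.50, a log2 change of 0.95 ± 0.19 (adjusted p 6.39e-05 in edgeR). The region 12.2 kb downstream, at an annotated start of ENSG00000287937, had a log2 change of 0.52 ± 0.19 (adjusted p 0.0227 in edgeR), 0.28 relative to the median. Both calls were lost with the GC trend removed (0.33 and 0.08), and the latter was kept under 9 of 17 alternatives. The opposite was seen at chr2:112763901-112765300, within 30 kb of IL1A but at the start of CKAP2L, where vehicle libraries held 39.8, 43.1 and 38 and DOX libraries 23.7, 26.3 and 28.4. The groups did not overlap, and the log2 change was -0.63 ± 0.10, -0.87 relative to the median (adjusted p 2.28e-06 in edgeR). No region within 1 kb of a start of IL1A or IL1B was in either table, so their own promoters have no value.

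CXCL1, CXCL2 and CXCL3 encode ligands of CXCR2 and sit in a cluster on chromosome 4, and in DU-145 distal regions of CXCL1 and CXCL2 changed in both directions. At chr4:74096201-74096900, 2.7 kb downstream of the CXCL2 start, coverage was 0.937, 1.17 and 2.27 with vehicle and 4.81, 4.80 and 4.49 with DOX. The DOX libraries were all above the vehicle libraries, a 3.22-fold gain (log2 1.74 ± 0.27, 1.5 relative to the median, adjusted p 1.41e-06 in edgeR). At chr4:73891901-73892300, an intergenic region 22.7 kb downstream of the CXCL1 start, coverage was 1.11, 2.75 and 1.61 with vehicle and 0.249, 0.0551 and 0.263 with DOX. This was the reverse pattern, with DOX libraries close to absent, a log2 change of -3.36 ± 0.51 and -3.60 relative to the median (adjusted p 9.43e-07 in edgeR). In limma-trend with 1 added it was smaller, at -1.21, and still called. With peaks in 3 of 3 vehicle and 0 of 3 DOX libraries, this region was included only through the group where it is high. At chr4:74116901-74117600, 18.1 kb upstream of CXCL2 in an intron near MTHFD2L, coverage fell from 10.1, 10.5 and 11.3 to 5.19, 6.60 and 5.09 (log2 -0.91 ± 0.17, adjusted p 2.18e-05 in edgeR). Its groups did not overlap, and 2 further regions on that side, at 15.2 and 24.1 kb upstream and both at annotated starts of MTHFD2L, were lower too, as seen after their values were known (log2 -0.57 and -1.06, called under 13 and 17 of 17 alternatives). Nearer to CXCL2, the region 10.6 kb upstream, chosen likewise, held 74.1, 83.1 and 86.9 with vehicle and 82.6, 82.2 and 77.7 with DOX, and neither it nor the next region upstream was called (log2 -0.01 and -0.07). Gains chosen in the same way lay 12.6 kb upstream of CXCL1, where coverage rose from 0.176, 0.697 and 0 to 2.11, 2.28 and 2.14 (log2 2.58 ± 0.46, adjusted p 1.07e-05 in edgeR), and 18.3 kb upstream of CXCL3 (log2 1.45 ± 0.27, adjusted p 2.92e-05 in edgeR). The CXCL1 gain was called under all 17 alternatives, and that of CXCL3 under 16, its call being lost with the GC trend removed (0.57). The CXCL1 region had peaks in 0 of 3 vehicle and 3 of 3 DOX libraries. It was thus included only through DOX, and the alternatives share that choice.

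At the start sites of these chemokines in DU-145, that of CXCL3 fell and those of CXCL1, CXCL2 and CXCL8 were not called. The CXCL1 promoter region held 14.3, 12.2 and 8.61 with vehicle and 7.21, 10.2 and 15.7 with DOX, so the groups overlapped (log2 -0.08 ± 0.19, adjusted p 0.758 in edgeR). The CXCL2 promoter region held 30.6, 29.1 and 26.9 with vehicle and 25.4, 25.8 and 24.7 with DOX. Its log2 value of -0.19 ± 0.10 was not called (adjusted p 0.125 in edgeR), although every DOX library lay below every vehicle library, and 6 of its 17 alternatives called it lower, TMM with -0.38. The CXCL3 promoter region held 22.3, 21.7 and 21.2 with vehicle and 18.4, 15 and 16.9 with DOX and was called lower (log2 -0.38 ± 0.12, -0.62 relative to the median, adjusted p 0.00833 in edgeR). Without DU-145 DOX replicate 2, the lowest of its DOX libraries, that adjusted p was 0.0566, the highest over its alternatives, which began at 3.39e-06. The CXCL8 promoter region, at the gene for the prototype neutrophil chemokine, held 15.2, 11.8 and 16.2 with vehicle and 18.3, 16.7 and 15.4 with DOX. Those groups overlapped and were not called (log2 0.24 ± 0.14, adjusted p 0.149 in edgeR), and with the trend with GC content removed the region was called lower, at -0.61 (adjusted p 0.000299 in edgeR, over a range of 0.000299 to 0.963).

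Among the remaining members in DU-145, the promoter region of CCL2, a monocyte chemoattractant, held 1.22, 1.43 and 1.85 with vehicle and 0.484, 0.557 and 0.927 with DOX. The DOX libraries were all below (log2 -1.14 ± 0.39, adjusted p 0.0122 in edgeR), with an adjusted p of 0.0575 without DU-145 DOX replicate 2 and 0.0770 by the highest bin, over a range of 0.000459 to 0.0770. The log2 change by the highest bin was -1.03. Peaks at this region were in 3 of 3 vehicle and 0 of 3 DOX libraries, so it was included only through the group where it is high. CCL20, the ligand of CCR6, had no promoter region, and the region 4.6 kb downstream of its start held 94.5, 91.1 and 82.7 with vehicle and 105, 93.2 and 93.6 with DOX, with no call. A region 17.2 kb upstream of CCL20, named after its values were seen, fell from 9.76, 11.4 and 10.1 to 7.04, 4.08 and 5.75 (log2 -0.92 ± 0.18, adjusted p 5.84e-05 in edgeR).

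IL6, a cytokine of the acute phase, gained coverage in DU-145 away from its start. Its promoter region held 32.9, 41.1 and 32.4 with vehicle and 41.0, 35.4 and 33.5 with DOX, which overlapped (log2 0.03 ± 0.10, adjusted p 0.805 in edgeR, and -0.16 under TMM). It was called lower with the GC trend removed (-0.27) and by its highest bin (-0.39). The exonic region 4.2 kb downstream, named here after its values were seen, held 6.95, 5.32 and 6.34 with vehicle and 11.1, 10.8 and 12.6 with DOX, without overlap (log2 0.91 ± 0.17, 0.67 relative to the median, adjusted p 1.74e-05 in edgeR). The region 4.0 kb upstream, chosen likewise, had a log2 change of 1.04 ± 0.27 (adjusted p 0.00152 in edgeR). With the GC trend removed neither gain was called (0.36 and 0.54).

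**Figure D2:**
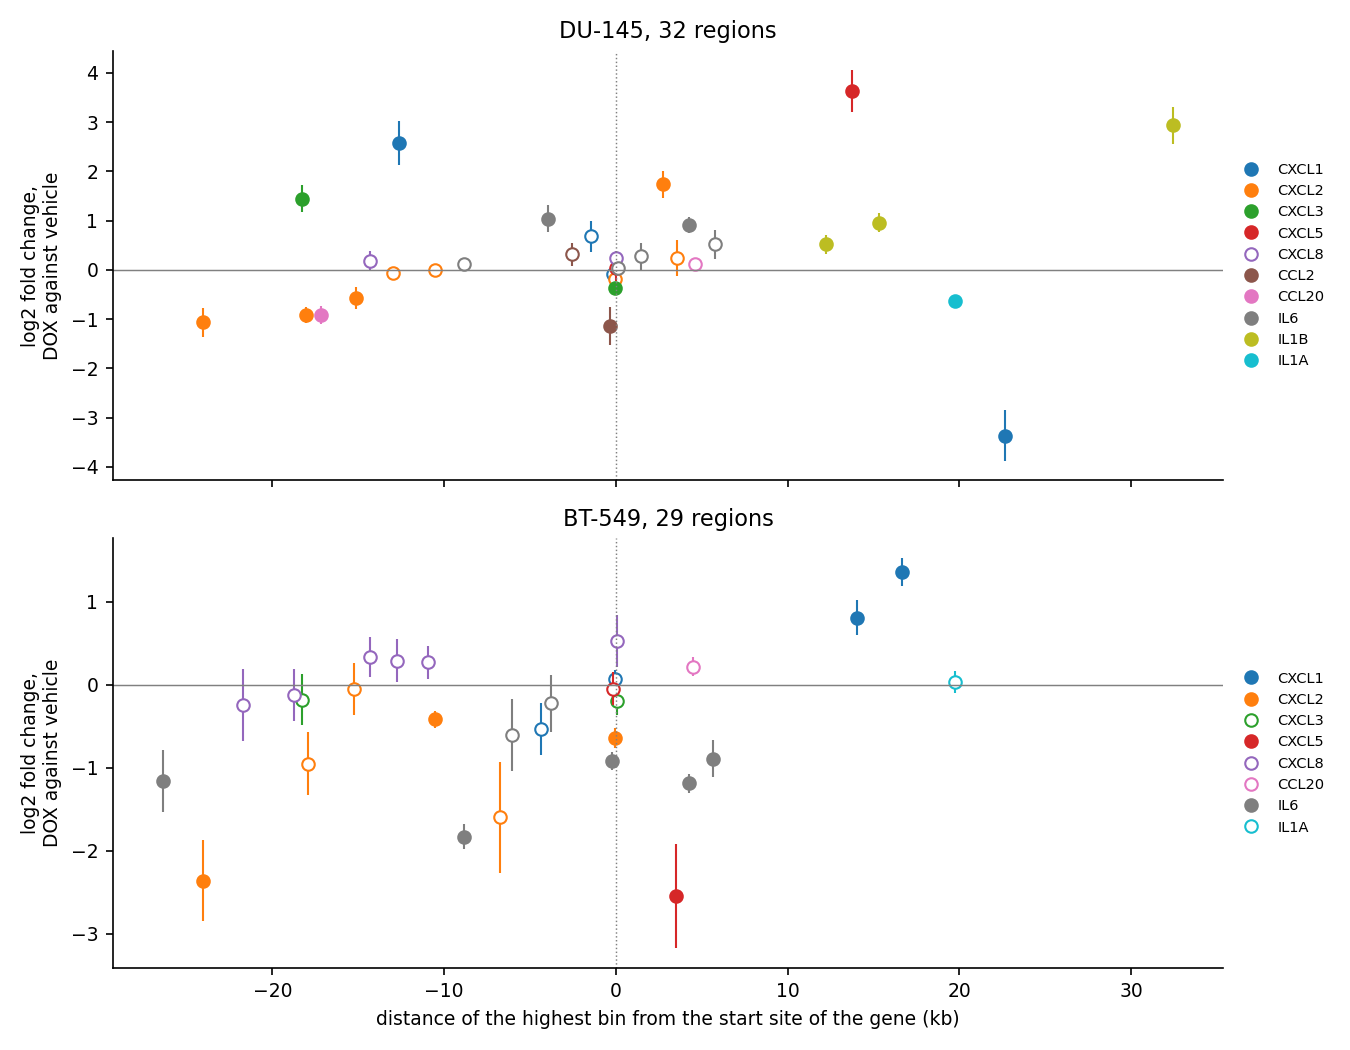
Log2 fold change with DOX (y axis) of each region against the distance in kb of its highest bin from the start of its gene (x axis), with SE bars and filled points where the adjusted p was under 0.05. In DU-145 the named gains between IL1B and IL1A (2.94, drawn under IL1B) and near CXCL2 (1.74) lie away from the start, and in BT-549 the IL6 points at -8.8, -0.2 and +4.2 kb lie below 0, in each case under all scalings tried. The region between IL1B and IL1A had peaks only with DOX, so it was included only through the group where it is high.

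By the cutoffs that the study's methods set for differentially accessible regions (DARs) in DU-145, which ask for an adjusted p under 1e-05 and a fold of 2 or more and were set there for single bins in DESeq2 but are used here on joined regions, 4 of the 32 regions passed in edgeR. There were 3 opening DARs, among them those between IL1B and IL1A and at CXCL2 +2.7 kb, against 14.1% opening among all regions, and the closing DAR was CXCL1 +22.7 kb, against 3.27%. Peaks called in single libraries covered 23, 27 and 27 of the 32 regions with vehicle and 28, 30 and 29 with DOX, in which the median number of peaks in the whole genome was also higher, 89475 against 69240. The share of all DU-145 regions with a peak is not given here, so these counts are not read as a trait of the members. The region between IL1B and IL1A had a peak in 0 of 3 vehicle and 3 of 3 DOX libraries, and that at CXCL1 +22.7 kb in 3 of 3 and 0 of 3. By the methods, consensus regions were those accessible in at least 3 replicates, whatever the condition. These regions therefore entered the table only through the group where they are high, and their peak counts follow from that rule. The same holds for CXCL1 -12.6 kb, with peaks only with DOX, and for the CCL2 promoter region, with peaks only with vehicle.

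Scaling set much of the balance in DU-145. Calls higher made up 68.0% of all calls under library sums, 54.1% under TMM, 50.6% under RLE, 50.03% in DESeq2, 48.7% with distal-bin scaling and 43.6% with the GC trend removed. Removing the GC trend left 4 member regions higher and 16 lower, against 23.1% and 29.8% of all regions, with values of 2.21 (between IL1B and IL1A), 1.09 (CXCL2 +2.7 kb), -1.60 (CXCL2 -18.1 kb) and -4.20 (CXCL1 +22.7 kb). Without DU-145 DOX replicate 2, 5 member regions were lower, against 16.1% of all, and 2 passed the DAR cutoffs. The share of coverage within 1 kb of a TSS was 64.2% with vehicle and 56.6% with DOX, and its part in these results was not tested. Markers of leukocytes, cells that often make these cytokines, had bins for 4 of 8 genes, with a summed coverage of 37.1, 33.4 and 31.2 with vehicle and 47, 50.7 and 48.3 with DOX. CD14 was the highest of them with vehicle (mean 13.7, and 9.56 with DOX) and CSF1R with DOX (20.9, and 13.3 with vehicle), while PTPRC went from 0.890 to 5.68 and CD79A from 6.07 to 12.5. SPI1, CD3E, LYZ and TYROBP had no bins or peaks, and the part of these markers in the IL1B and other gains was not tested.

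The same question in BT-549 cells had a different outcome around the members. IL6 lost coverage across much of its neighbourhood, from an upstream intron through the promoter to the gene body, and CXCL2 and CXCL5 lost distal coverage, while 2 elements downstream of CXCL1 gained. Of the 29 regions, 2 were higher with DOX, 9 were lower and 18 were not called in edgeR, against 12.2% higher and 18.0% lower among all 46298 regions. The median log2 change was -0.23 over the members and -0.10 over all regions, and changes are also given relative to the latter. With the GC trend removed both turned positive, at 0.09 and 0.04. Away from annotated starts 2 of 20 member regions were higher and 6 lower, against 9.53% and 23.4% of all such regions, and within 1 kb of a start of any gene 0 of 9 were higher and 3 lower, against 16.0% and 10.2%. Those 3 were the IL6 start, a long region that holds the CXCL2 start and a start of MTHFD2L 24.1 kb upstream of CXCL2. In the long region the fall did not lie at the CXCL2 start itself.

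The element 8.8 kb upstream of IL6, chr7:22717601-22719300 in an annotated intron, held 107, 109 and 112 with vehicle. With DOX it held 24.3, 24.4 and 41.6. Even the highest DOX library was far below the lowest vehicle library, and the coverage was 3.64-fold lower (log2 -1.83 ± 0.15, -1.73 relative to the median, adjusted p 3.44e-10 in edgeR). The region 4.2 kb downstream, chr7:22728701-22731900, went from 119, 123 and 121 to 58.1, 54.3 and 47.3, which is 2.27-fold lower (log2 -1.19 ± 0.11, adjusted p 5.98e-09 in edgeR). The promoter region, chr7:22725501-22728000, held 124, 132 and 146 with vehicle and 67.6, 63.8 and 80.0 with DOX, again without overlap (log2 -0.92 ± 0.11, -0.82 relative to the median, adjusted p 3.75e-07 in edgeR). These 3 falls were called under all 17 alternatives. Of the other 4 IL6 regions, 2 named after their values were seen also fell, that at 5.7 kb downstream from 23.2, 21.2 and 21.2 to 8.55, 11.9 and 14.5 and that at 26.4 kb upstream from 7.64, 7.34 and 8.71 to 5.55, 3.83 and 1.41. Both calls were lost with the GC trend removed (-0.39 and -0.64). That at 5.7 kb downstream was also lost by the highest bin (-0.77). The call at 26.4 kb upstream was kept under 12 of 17 alternatives. It was also lost in DESeq2 and without BT-549 DOX replicate 3, vehicle replicate 1 or vehicle replicate 3. Peaks at 26.4 kb upstream were in 3 of 3 vehicle and 0 of 3 DOX libraries, so that region was included only through vehicle. The regions 6.1 and 3.8 kb upstream were not called.

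**Figure D3:**
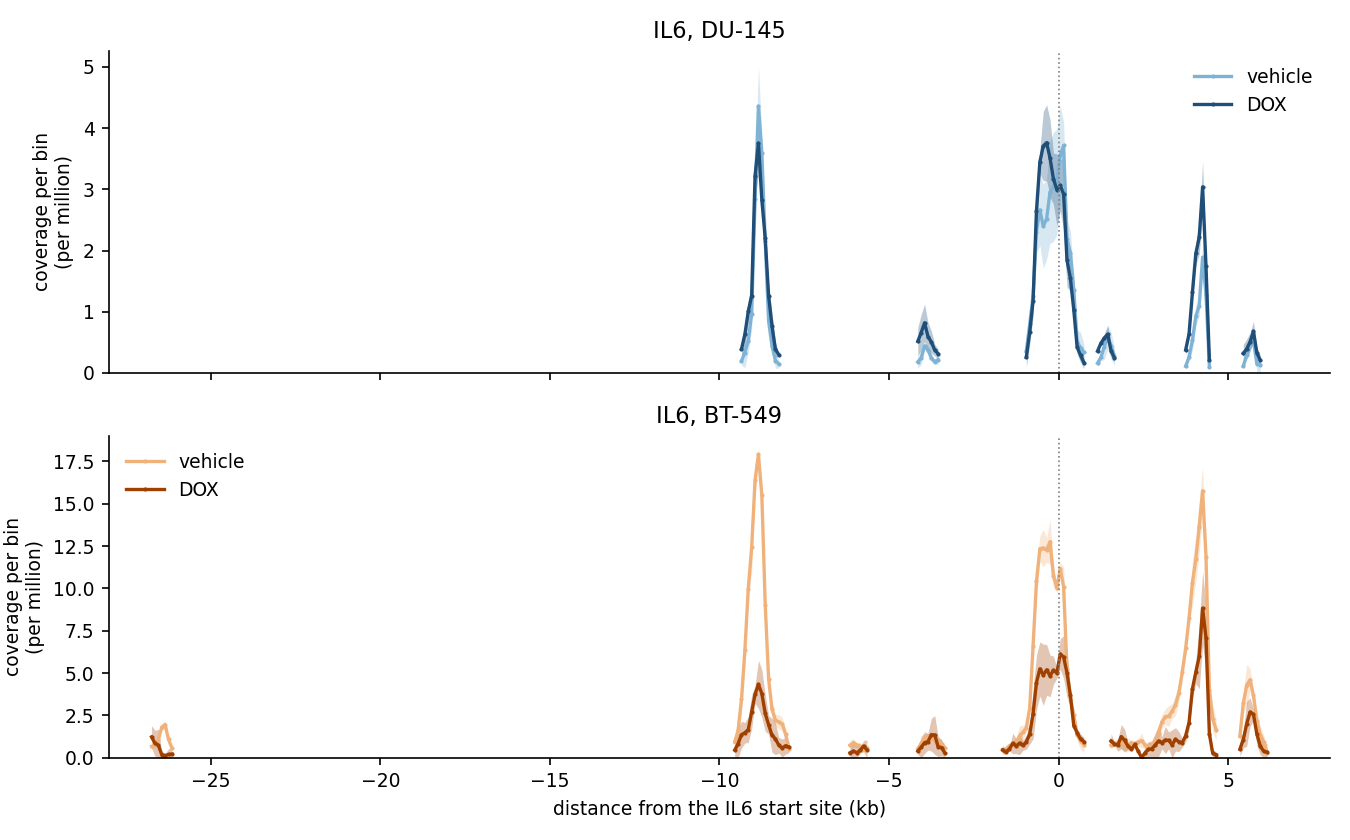
Coverage per 100-bp bin (per 1000000, y axis) against distance from the IL6 start in kb (x axis) in each line, with lines at the group mean and bands of 1 SD (n = 3). In BT-549 the DOX line runs below the vehicle line at -8.8, -0.2 and +4.2 kb (3.64-fold lower over the region at -8.8 kb), a direction found under all scalings tried, whereas in DU-145 the promoter region has a log2 value of 0.03 (-0.16 under TMM) and the lines cross within it, with vehicle at 2.40 and DOX at 3.71 at -0.45 kb and 3.72 and 2.92 at +0.15 kb.

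CXCL1 was the member with gains in BT-549. At chr4:73885501-73886500, an intergenic element 16.7 kb downstream of its start, coverage was 21.4, 15.7 and 18.2 with vehicle and 46.5, 51.3 and 44.8 with DOX. No DOX library overlapped with vehicle, a 2.58-fold gain (log2 1.36 ± 0.17, 1.46 relative to the median, adjusted p 5.28e-07 in edgeR). A neighbour at chr4:73882901-73883900, 14.1 kb downstream, held 11.2, 12.7 and 11.5 with vehicle and 20.8, 21.9 and 19.4 with DOX (log2 0.81 ± 0.21, adjusted p 0.00495 in edgeR). Both gains were called under all 17 alternatives, and with the GC trend removed they were 1.95 and 1.45. The CXCL1 promoter region, which spans chr4:73867901-73873500, held 132, 146 and 127 with vehicle and 123, 152 and 151 with DOX. It overlapped and was not called (log2 0.07 ± 0.10, adjusted p 0.624 in edgeR), but it was called higher by its highest bin (0.89) and with the GC trend removed (0.49). The shared piece that holds the start, chr4:73868601-73870700, named after its values were seen, held 54.3, 60.3 and 52.8 with vehicle and 69.4, 82.3 and 79.5 with DOX, without overlap.

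CXCL2, in the same cluster as CXCL1, went the other way. Its start lies in a long region, chr4:74094701-74099700, that held 91.3, 88.6 and 90.9 with vehicle and 51.6, 67.7 and 54.7 with DOX, without overlap (log2 -0.64 ± 0.12, -0.54 relative to the median, adjusted p 0.000173 in edgeR). The fall did not lie at the start itself, since the highest bin gave 0.36 with no call, and with the GC trend removed the region was not called. The shared piece that holds the start, chr4:74097601-74099700, held 41.9, 41.6 and 45.6 with vehicle and 37.4, 43.2 and 43.0 with DOX. The piece 2.7 kb downstream, in contrast, went from 23.8, 23.8 and 23.4 to 6.08, 10.9 and 6.56. The region 10.6 kb upstream fell as well, from 133, 128 and 113 to 93.9, 94.6 and 91.5, and so did that 24.1 kb upstream, from 6.50, 7.75 and 6.2 to 1.91, 0.184 and 1.93. These 2 are named after their values were seen (adjusted p 0.00269 and 0.000486 in edgeR). The fall 24.1 kb upstream was called under all 17 alternatives, but peaks there were in 3 of 3 vehicle and 0 of 3 DOX libraries. That region was thus included only through vehicle, and the alternatives share that choice. The call at 10.6 kb (log2 -0.42) was lost with the GC trend removed (0.17), by the highest bin (-0.36) and with distal-bin scaling (-0.23).

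**Figure D4:**
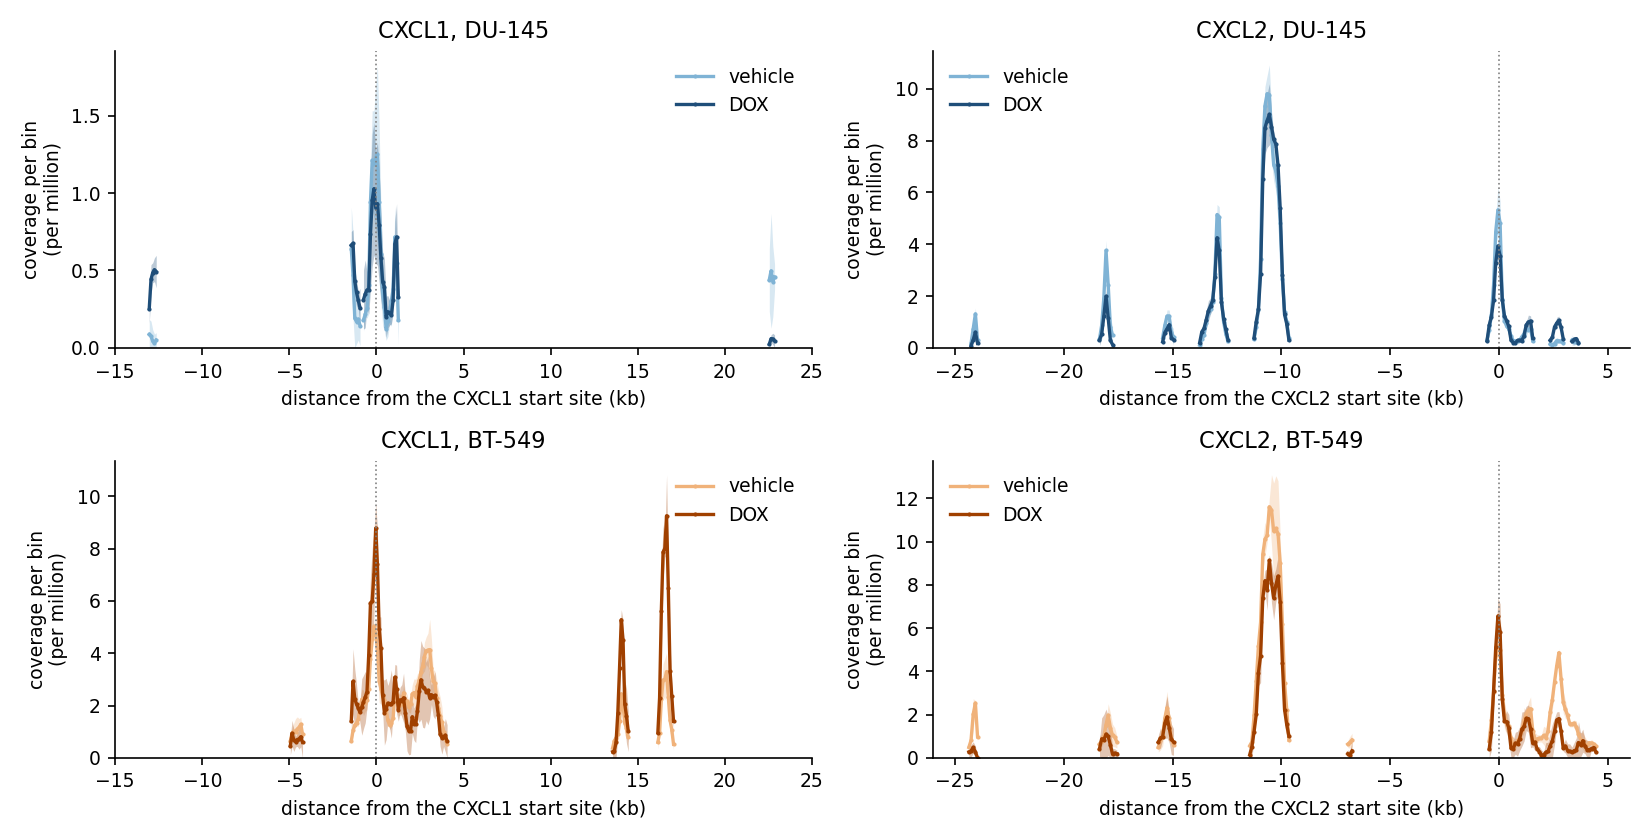
Coverage per 100-bp bin (per 1000000, y axis) against distance from the start of CXCL1 and of CXCL2 in kb (x axis) in each line, with lines at the group mean and bands of 1 SD (n = 3). With DOX, the CXCL1 element at +16.7 kb in BT-549 is 2.58-fold higher and the CXCL2 element at +2.7 kb in DU-145 3.22-fold higher, both with the same sign under all scalings tried, and in BT-549 the mean over that CXCL2 element goes from 23.7 to 7.83.

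The other members gave few calls in BT-549. The CXCL3 promoter region held 29.7, 33.3 and 27 with vehicle and 26.5, 25 and 27 with DOX, and that of CXCL5 held 27.1, 26.1 and 33.4 and 20.5, 38.1 and 25.3. Neither was called (log2 -0.20 and -0.05, the latter 0.06 under TMM), and the CXCL5 groups overlapped. A CXCL5 element 3.5 kb downstream, named after its values were seen, went from 3.93, 4.23 and 4.71 to 0, 0 and 1.92, with 2 DOX libraries at 0 (log2 -2.55 ± 0.63, adjusted p 0.00264 in edgeR), a call lost by the highest bin. This element had peaks in 3 of 3 vehicle and 0 of 3 DOX libraries, so it entered the table only through the group where it is high. None of the 6 CXCL8 regions was called in edgeR under library sums, with log2 values from -0.25 to 0.53. The highest of these was the CXCL8 promoter region, which held 5.84, 4.60 and 7.14 with vehicle and 5.23, 10.7 and 8.75 with DOX, and with the GC trend removed it was called higher (0.96). CCL20 had 1 region, with 93.3, 80.2 and 82.8 and then 113, 83.5 and 101, which overlapped. The region at CKAP2L near IL1A held 48.9, 49.5 and 44.4 and then 49.9, 45.4 and 50.01, overlapping as well (log2 0.03 ± 0.13, adjusted p 0.906 in edgeR).

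With the study's BT-549 cutoffs, an adjusted p under 0.01 and a fold of 2 or more, 5 of the 29 regions passed in edgeR. The opening DAR was CXCL1 +16.7 kb, against 3.75% opening among all regions, and the 4 closing DARs were IL6 -8.8 kb, IL6 +4.2 kb, CXCL2 -24.1 kb and CXCL5 +3.5 kb, against 8.62%. Peaks covered 29 of the 29 regions in each vehicle library and 17, 19 and 20 in the DOX libraries, in which the median number of peaks in the whole genome was also lower, 38613 against 87598. The share of all BT-549 regions with a peak is not given here either, so the drop is not read as a trait of the members. Since a consensus region needed peaks in at least 3 replicates, a region without peaks with DOX could enter only with peaks in every vehicle library. CXCL5 +3.5 kb, CXCL2 -24.1 kb and IL6 -26.4 kb were among such regions, so the vehicle count follows in part from this rule. Calls higher made up 40.4% of all calls under library sums, 51.7% under TMM, 52.1% under RLE, 54.6% in DESeq2, 58.4% with the GC trend removed, which left 8 member regions higher and 5 lower, against 14.6% and 10.4% of all, and 60.4% with distal-bin scaling. The share of coverage within 1 kb of a TSS was 63.4% with vehicle and 67.8% with DOX, and the part of this and of the low DOX depth in these results was not tested. Leukocyte markers had bins for 2 of 8 genes, CD14 and CSF1R, with a summed coverage of 57.4, 59.98 and 63.3 with vehicle and 34.4, 42.7 and 40.3 with DOX, and CSF1R was the higher of them (mean 37.4 and 21.1). Their part in the falls at IL6 was not tested, and PTPRC, SPI1, CD3E, CD79A, LYZ and TYROBP had no bins, with peaks in 2 libraries at PTPRC and 1 at SPI1.

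The comparison of the lines in vehicle asks how the neighbourhoods of the members differ before DOX is given. Most measured regions were more accessible in BT-549, with IL6, CXCL1, CXCL5 and the element downstream of CXCL2 far above DU-145, and the CXCL8 start site was the member region higher in DU-145. In edgeR, 18 of the 22 shared regions were higher in BT-549, 1 was higher in DU-145 and 3 were not called, against 53.5% and 23.0% of all 32671. The median log2 difference was 1.66 over the members and 0.47 over all shared regions, and differences are also given relative to 0.47. With the GC trend removed they were 0.37 and -0.03. Copy number, medium and line cannot be told apart in this comparison.

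The IL6 +4.2 kb region, chr7:22730901-22731700, held 6.95, 5.32 and 6.34 in DU-145 and 81.9, 87.2 and 77.1 in BT-549. The lines were far apart, at 13.2-fold (log2 3.75 ± 0.12, 3.28 relative to the median, adjusted p 8.00e-25 in edgeR). The IL6 -8.8 kb region, chr7:22717801-22719000, held 16.6, 15.9 and 17.4 in DU-145 and 101, 104 and 104 in BT-549 (6.2-fold, log2 2.64 ± 0.10, 2.17 relative to the median, adjusted p 2.20e-23 in edgeR). The IL6 promoter, chr7:22726201-22728000, held 32.9, 41.1 and 32.4 in DU-145 and 119, 125 and 139 in BT-549 (3.61-fold, log2 1.84 ± 0.09, 1.37 relative to the median, adjusted p 2.61e-19 in edgeR). No library of either line came near the other at these 3 regions, and all 18 alternatives called them in this direction. The differences at +4.2 and -8.8 kb were 2.90 and 1.67 with the GC trend removed and 3.10 and 2.04 by the highest bin.

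Start sites other than that of IL6 differed less evenly, and all but that of CXCL8 are named after their values were seen. That of CXCL5 held 4.31, 2.66 and 3.81 in DU-145 and 23.5, 23.8 and 29.6 in BT-549, 7.13-fold apart, and that of CXCL1 14.3, 12.2 and 8.61 against 54.3, 60.3 and 52.8. The starts of CXCL2 and CXCL3 were closer, with log2 differences of 0.59 and 0.47, only 0.12 and 0.00 relative to the median, and both calls were lost under TMM. The CXCL8 start, chr4:73740401-73740800, held 13.9, 10.4 and 12.4 in DU-145 and 5.84, 4.60 and 7.14 in BT-549, 2.09-fold higher in DU-145 (log2 -1.07 ± 0.19, -1.54 relative to the median, adjusted p 5.47e-06 in edgeR, and -1.997 with the GC trend removed). A CXCL8 region 14.3 kb upstream, in contrast, was higher in BT-549 (log2 1.52). CCL20 +4.6 kb was alike in level by library sums only, with 94.5, 91.1 and 82.7 against 93.3, 80.2 and 82.8 (log2 -0.07 ± 0.08, adjusted p 0.477 in edgeR). Relative to the median its log2 difference was -0.53, on the side of DU-145.

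Calls with BT-549 higher made up 70.0% of all calls under library sums, 50.4% under TMM, 49.7% under RLE, 48.3% in DESeq2 and 47.3% with the GC trend removed, under which 11 member regions were higher in BT-549 and 4 in DU-145, against 33.0% and 36.7% of all. TMM, RLE and DESeq2 each called 4 of the 22 member regions higher in DU-145, against 36.0%, 36.5% and 35.2% of all. Without BT-549 vehicle replicate 3 there were 2, against 22.2% of all. Some member regions had no bins in the other line's table and were not tested between lines: 10 of 32 in DU-145, against 60% of all its regions, and 11 of 29 in BT-549, against 30.7%. Of these, 7 had no peak in any BT-549 library and 7 none in any DU-145 library, against 69.7% and 72.0% of all regions without such bins. The elements at CXCL1 +22.7 kb and between IL1B and IL1A were among those without a peak in BT-549.

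The last comparison asks whether the DOX effect differed between the lines, by the interaction of line and DOX over all 12 libraries, and it shares its vehicle libraries with the comparisons above. The effect was lower in BT-549 at IL6 and at distal CXCL2 and CXCL3 elements, and higher in BT-549 at the CKAP2L start near IL1A. In edgeR, 10 of the 22 shared regions had a lower and 1 a higher DOX effect in BT-549, with 11 not called, against 22.0% lower and 17.8% higher of all 32671. The median was -0.08 over the members and -0.06 over all. Of the 12 member regions away from annotated starts 8 were lower and 0 higher, against 34.8% and 6.45%, and of the 10 near a start 2 were lower and 1 higher, against 9.08% and 29.2%.

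At IL6 -8.8 kb the DU-145 libraries held 16.6, 15.9 and 17.4 with vehicle and 17.4, 18.6 and 18.0 with DOX. The BT-549 libraries there held 101, 104 and 104 with vehicle and 21.1, 23.9 and 35.6 with DOX. BT-549 with DOX thus lay closer to the DU-145 libraries than to its own vehicle, and the interaction was -2.04 ± 0.19 (adjusted p 2.74e-11 in edgeR). At IL6 +4.2 kb the DU-145 libraries rose to 11.1, 10.8 and 12.6 while those of BT-549 fell to 41.6, 36.7 and 29.1, an interaction of -2.12 ± 0.21 (adjusted p 9.72e-11 in edgeR). At CXCL2 +2.7 kb the directions were also opposite: the mean went from 1.46 to 4.70 in DU-145 and from 23.7 to 7.83 in BT-549, an interaction of -3.37 ± 0.36 (adjusted p 6.27e-10 in edgeR). At the CKAP2L start near IL1A the mean went from 40.3 to 26.1 in DU-145 and from 45.7 to 46.7 in BT-549, an interaction of 0.65 ± 0.17 (adjusted p 0.00193 in edgeR). These 4 interactions kept their sign and call under all 24 alternatives, at -1.21 and -1.43 for the IL6 regions and -2.48 for CXCL2 with the GC trend removed, and at -2.77 for CXCL2 in limma-trend with 1 added.

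**Figure D5:**
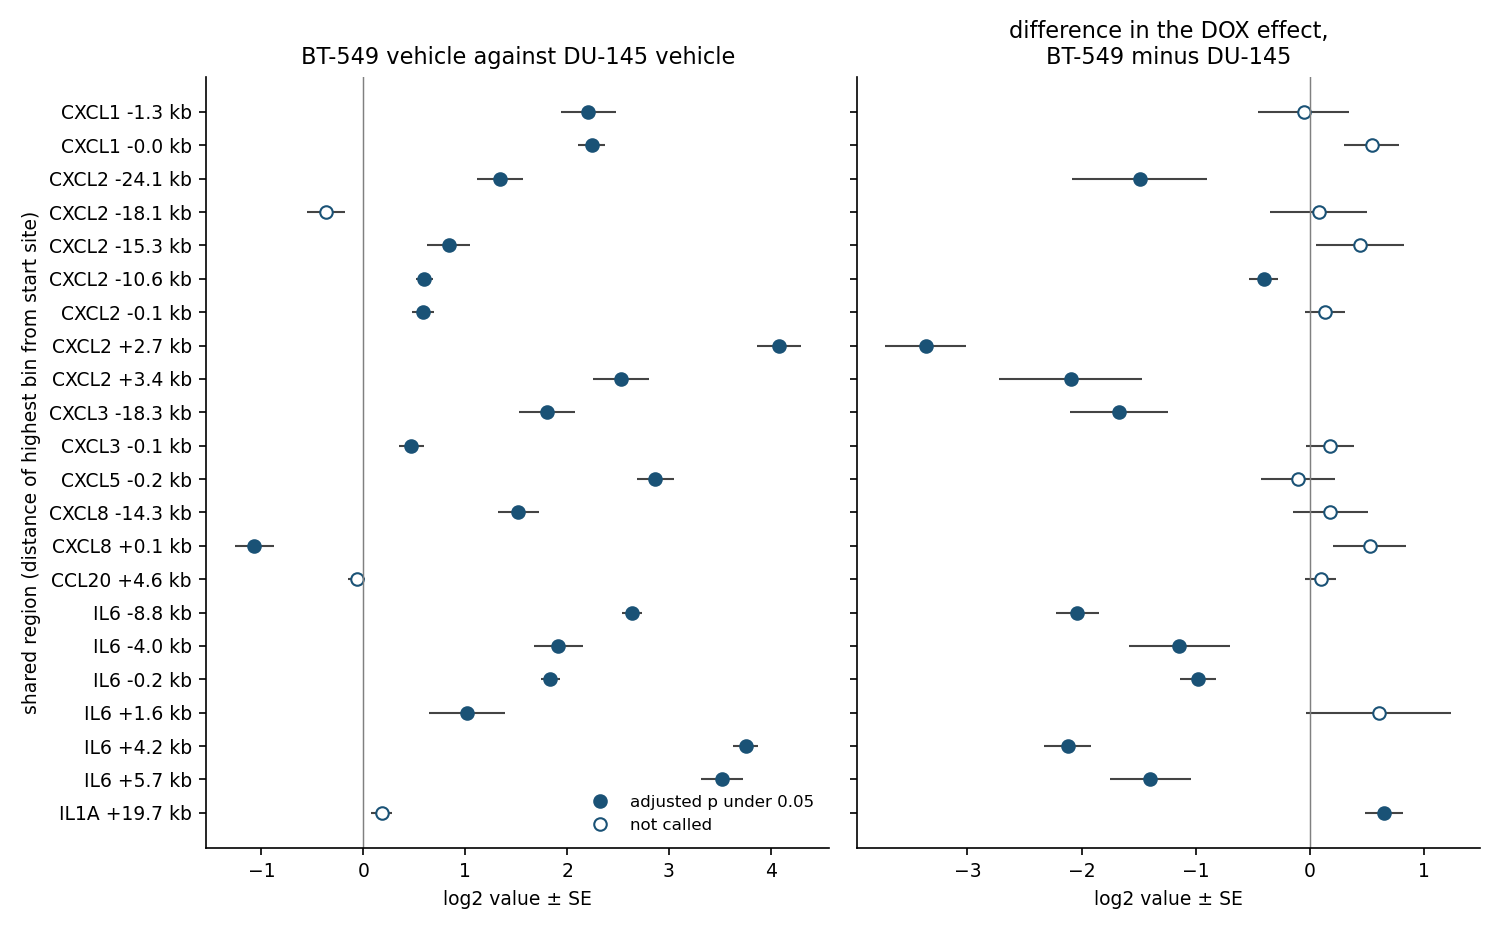
Log2 difference between the lines in vehicle (left) and difference in the DOX effect, BT-549 minus DU-145 (right), for the 22 shared regions, with SE bars and filled points where the adjusted p was under 0.05. IL6 +4.2 kb is among the highest on the left (3.75) and among the lowest on the right (-2.12), where CXCL2 +2.7 kb is the lowest (-3.37), and these 3 values kept their sign under all alternatives.

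At the CXCL1 and CXCL8 starts the interaction was not called (0.54 and 0.53, adjusted p 0.0652 and 0.198 in edgeR), nor at those of CXCL2, CXCL3 and CXCL5 (0.13, 0.18 and -0.10). Calls with a higher effect in BT-549 made up 44.7% of all calls under library sums, 60.8% with the GC trend removed and 73.6% with distal-bin scaling, where 7 member regions were higher in each case (against 20.2% and 37.3% of all), and 29.3% with sums over shared bins. The single positive call became 2 without BT-549 DOX replicate 1, DU-145 DOX replicate 3 or DU-145 vehicle replicate 3, against 17.1%, 16.2% and 16.5% of all.

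The mean profile of the members over the 12 libraries was compared with other genes as a description. It holds CCL2 and IL1B at 0 in BT-549, where the table has no bins for them, and the sums of the lines are over different bins, so that it separates the lines in part by construction. Of 16694 genes with bins in both tables, those most like it were LRP1B, SNCAIP, ENSG00000268533, TRAPPC3 and PROX1, each at r = 0.99. Not all members follow it, with r = -0.41 at CCL20 and -0.95 and -0.96 at CCL2 and IL1B, where r follows from the zeros. These r describe libraries in 2 separate clusters by line and carry no test. LRP1B, for example, had means of 10.3 and 8.09 in DU-145 with vehicle and DOX and 53.3 and 40.7 in BT-549.

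Other genes of the pathway were counted by the same 30 kb rule and tested in the same edgeR fits, and the regions named were chosen after their values were seen. In DU-145, 27 of 73 regions of other cytokine genes were higher and 9 lower, and for receptor genes 26 of 60 were higher and 12 lower, against 37.1% and 17.4% of all. For other chemokines the counts were 12 higher and 9 lower of 52, of which 7 regions are also member regions, and for signalling genes 30 higher and 27 lower of 88. At CSF2, a myeloid growth factor, a region rose from a mean of 21.4 to 67.4 (3.16-fold, adjusted p 1.90e-16 in edgeR), and at IL1RL1, the receptor of IL33, a promoter region rose from 1.82 to 20.2 (11.1-fold, adjusted p 1.66e-15 in edgeR). A region upstream of CEBPD, which encodes a C/EBP factor, fell from 12.7 to 1.04 (log2 -3.59 ± 0.22, adjusted p 2.71e-15 in edgeR). In BT-549 the counts were 3 higher and 10 lower of 50 for other cytokines, 1 and 6 of 30 for receptors, 2 and 2 of 13 for other chemokines, of which 5 are member regions, and 7 and 4 of 70 for signalling genes, against 12.2% and 18.0%. A long region at NFKBIZ, which encodes a cofactor of NF-kappa B needed for IL6 induction, fell from 214 to 50.6 in BT-549 (log2 -2.09 ± 0.11, adjusted p 3.78e-14 in edgeR). There the promoter of IL6ST, the signalling chain of the IL6 receptor, rose from 73.8 to 109 (1.48-fold) and that of CEBPB from 91.3 to 133 (1.45-fold), both called, while regions of IL1RAP and IL1R2 fell (log2 -1.28 and -2.07). Between the lines in vehicle, BT-549 was higher at 23 of 41 regions of other cytokines, 10 of 19 of receptors, 7 of 11 of other chemokines and 34 of 52 of signalling genes, against 53.5% of all, and DU-145 at 9, 4, 1 and 9, against 23.0%. The DOX effect was lower in BT-549 at 11, 5, 1 and 3 of these regions, against 22.0%, and higher at 6, 2, 2 and 12, against 17.8%.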

How the data were processed

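The authors deposited, for each line, a table of estimated counts per 100-bp bin of its consensus accessible regions, and for each library a list of peaks with fold over background, -log10 p-value and -log10 q-value. The submitters' notes and the methods name GRCh38, BWA, Picard and MACS2 2.2.7.1. The deposited estimated counts are mean coverage and mostly not whole, so the sums over each region were rounded to whole numbers, as the test assumes. Adjacent bins were joined into regions. Regions with a total of at least 10 were tested in R 4.3.3 with edgeR 4.0.16 (quasi-likelihood, robust, offset by library sums), adjusted by Benjamini-Hochberg over all regions and called at an adjusted p under 0.05. Motifs, sums and plots used Python 3.11.15 with pandas 2.3.3, numpy 2.4.6 and matplotlib 3.10.9.

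Named regions were each member's promoter region in each line and, for each comparison, the 3 regions with the smallest adjusted p in each direction. Others were chosen after values were seen, and 1 region that the rule names is not reported here. The members and lists were chosen with earlier results of these data known. Alternatives were TMM, RLE, removal of the GC trend, DESeq2 1.42.0, limma-trend (limma 3.58.1) with 1 or 0.5 added, filters, the highest bin, the replicate number as block, other library sums, windows of 10 and 100 kb, the DAR cutoff of the other line, stricter or longer-overlapping peaks, and leaving out each replicate. The code was tested on simulated data.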

Additional observations from a re-analysis of the deposited data

Results flagged for a closer look

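How far the response to DOX differed by line was tested in edgeR, as the interaction of line and DOX over 12 libraries, and it was past an adjusted p of 0.05 at 11 of the 22 shared regions (1 positive and 10 negative), against 17.8% positive and 22.0% negative of all 32671. Negative values mean a lower effect in BT-549. At IL6, the acute-phase cytokine, it was -2.04 at -8.8 kb, -1.14 at -4.0 kb, -0.98 at the promoter, -2.12 at +4.2 kb and -1.40 at +5.7 kb. The call at IL6 -4.0 kb was kept under 10 of 24 alternatives. RLE, DESeq2, limma-trend, the replicate number as block and distal-bin scaling were among those that lost it. At CXCL2 the interaction was -2.09 at +3.4 kb, -3.37 at +2.7 kb, -0.40 at -10.6 kb and -1.49 at -24.1 kb, and at CXCL3 it was -1.67 at -18.3 kb. The call at CXCL2 -24.1 kb was kept under 12 of 24 alternatives, and RLE, DESeq2 and the replicate number as block were among those that lost it. That at CXCL2 -10.6 kb was kept under 19 of 24, with a value of 0.06 under distal-bin scaling. At the CKAP2L start near IL1A the interaction was 0.65. With the GC trend removed 4 of the 10 negative calls were kept, those at IL6 -8.8 kb, the IL6 promoter, IL6 +4.2 kb and CXCL2 +2.7 kb, and CXCL2 -10.6 kb turned to 0.62. The BT-549 DOX libraries were the shallowest, with summed coverage of 2502510 to 3267024, and the part of depth in these differences was not tested.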

How the results depend on the processing

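Of 144 values of counts under alternatives other than leaving out a library, 106 lay within 1.5 times the reported count and 38 did not. The cause was not tested for any of them. With the GC trend removed, DU-145 had 4 member regions higher and 16 lower with DOX, BT-549 8 and 5, the lines 11 higher in BT-549 and 4 in DU-145, and the interaction 7 positive and 4 negative. Windows of 10 kb gave 4 higher and 3 lower and 1 DAR in DU-145, 0 higher and 3 DARs in BT-549 and 0 positive interactions. Windows of 100 kb gave 30 higher, 13 lower and 12 DARs in DU-145, 10 higher and 12 DARs in BT-549, 36 and 6 between the lines, and 6 positive and 18 negative interactions. The shares of all regions do not change with the window. How many member regions each of these windows holds is not given here, so their counts show no excess or lack. The DAR cutoff of the other line gave 8 in DU-145 and 3 in BT-549. The highest bin gave 5 lower in BT-549, 3 higher in DU-145 between the lines, and 3 positive and 6 negative interactions, against 10.9%, 28.0%, 15.8% and 14.8% of all. TMM, RLE and DESeq2 each gave 4 higher in DU-145 between the lines and 2 positive interactions, and sums over shared bins gave 3 higher in DU-145. Distal-bin sums, chosen after seeing the data, gave 2 higher in DU-145 and 7 positive interactions, against 24.0% and 37.3% of all. Leaving out a library gave 5 to 8 lower and 2 to 5 DARs in DU-145 with DOX, 1 to 2 higher in DU-145 between the lines and 1 to 2 positive interactions. The shares of all were 15.5% to 16.3% lower, 21.7% to 22.4% higher in DU-145 and 15.9% to 17.2% positive. For DARs under these alternatives the share of all regions is not given here.

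With the replicate number as a block, the counts were 10 higher and 8 lower in DU-145, 2 and 9 in BT-549, 18 and 1 between the lines and 1 and 8 for the interaction. In that order, the shares of all regions were 36.3% and 17.4%, 10.8% and 16.4%, 53.1% and 22.9%, and 17.4% and 21.1%. Replicate numbers did not pair the samples, since residuals of libraries with the same number correlated at -0.04 to 0.07.

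Of 349 such values for named regions, 316 kept direction and side of the threshold, 2 lost the call, 9 gained it and 22 changed sign. The sign changed at the DU-145 start of CXCL5 under TMM (-0.16), RLE (-0.21), DESeq2 (-0.22), the highest bin (-0.18) and distal-bin sums (-0.24), and it ran from -0.22 to 0.24 without a library. At that of IL6 the values were -0.16, -0.21, -0.21, -0.39 and -0.24, with -0.27 for the GC trend and -0.052 to 0.16 without a library. At that of CXCL8 they were -0.0091 under RLE, -0.0115 in DESeq2, -0.0102 by the highest bin, -0.61 for the GC trend and -0.041 with distal-bin sums, and at that of CXCL1 the range without a library was -0.41 to 0.14. In BT-549 the CXCL2 start gave 0.36 by the highest bin, and the CXCL5 start 0.060 under TMM, 0.064 under RLE, 0.078 for the GC trend, 0.067 in DESeq2, 0.14 with distal-bin sums and -0.31 to 0.12 without a library. The median bin in BT-549 was 2.96 to 4.09 with DOX against 11.4 to 16.8 with vehicle, and the part of depth was not tested.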

Other observations

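Summed marker coverage within 1 kb of start sites was 569 with vehicle and 546 with DOX for epithelial markers in DU-145, with ESRP2 highest, and 254 and 229 for mesenchymal markers, with VIM highest. Single markers went both ways there. The mean at ELF3 fell from 84.4 to 55.9 while CLDN7 rose from 14.9 to 26.2, and VIM fell from 143 to 114 while FN1 rose from 11.1 to 19.8. In BT-549 the sum was 62.9 and 65.3 for epithelial markers, with ESRP2 highest, and 493 and 561 for mesenchymal markers, with VIM highest. Its mesenchymal markers also went both ways. The mean rose at VIM from 115 to 175 and at ZEB1 from 41.4 to 83.1, and fell at SPARC from 89.2 to 43.9 and at FN1 from 44.9 to 26.6. Among endothelial markers 1 of 5, KDR, had bins, at 2.61 and 1.68 in DU-145 and 6.80 and 7.78 in BT-549.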
